A study of Homo sapiens with 15 samples.

Results

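The genes described here encode 9 components and regulators of the complement system: the proteases C1R and C1S, the central component C3, complement factors B (CFB) and D (CFD), the terminal component C7, complement factor I (CFI) and the membrane regulators CD55 and CD59. They were taken by gene symbol, with earlier results of these data known, so the choice was not blind. All 9 were found among the 17687 genes of the table, each with 1 probe set. Transcripts were measured on 15 microarrays of ASC52, a mesenchymal stem cell line from human adipose tissue immortalised with telomerase (hTERT). Undifferentiated cells (MSC, 5 arrays) were compared with cells that had been exposed to adipogenic medium for 14 days, starting 3 days after seeding, and then held for 7 days in RPMI with 10% fetal bovine serum (MA, 5 arrays) or in the same medium conditioned by MDA-MB-231 breast carcinoma cells (DED, 5 arrays). All groups come from this single line. The labels call MA cells mature adipocytes and DED cells dedifferentiated adipocytes. For the MSC cells the labels name neither medium nor time of harvest, so culture medium and time cannot be told apart from differentiation in comparisons with MSC. Nothing in the labels says that the 5 arrays of a group came from separate cultures, so each p-value reflects only the scatter among these samples, and that scatter may be technical.

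Complement is a cascade of plasma proteins. In the classical pathway C1q recognises a target and activates the proteases C1r and C1s, which lead to a convertase that cleaves C3. In the alternative pathway factor D cleaves factor B on C3b to form another C3 convertase, and C5 to C9 then assemble into the membrane attack complex. Factor I degrades C3b, CD55 dissociates the convertases on host cells, and CD59 blocks assembly of the attack complex. Fat cells are a known source of factor D, which is also called adipsin.

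Values are log2 intensities, so a difference of 1 is a factor of 2, and levels of different genes were not compared because each probe set has its own response. A gene was called when limma's two-sided adjusted p over all 17687 genes was under 0.05. All groups shared a single estimate of each gene's spread, so the p-value for a pair of groups also depends on the remaining group. Background was read from 612 negative control probe sets, whose median was 4.80 and whose 95th percentile was 8.31. Values under 8.31 lie in the range of background, and the size of a difference from such a value depends on it. All 9 measured adipocyte markers were called higher in MA than in MSC (15.4% of all genes were), with a median log2 difference of 7.46. In DED against MA 8 of them were called lower, and LEP differed by 0.67 (limma adjusted p = 0.078). The median of all 9 markers was -1.73 there. Of 8 epithelial and breast carcinoma markers 0 were called in DED against MA by limma (0 also had group ranges that did not overlap), and their list mean was 5.73 to 5.85 in MA and 5.81 to 5.97 in DED. Of 13 macrophage and monocyte markers 2 were higher (CD163 and CD14) and 2 lower (CD68 and MARCO) in DED than in MA, with list means of 6.15 to 6.31 in MA and 6.44 to 6.66 in DED. Among all genes, 12.9% were called up and 13.0% down in DED against MA, and 18.1% had ranges that did not overlap. CD163, a scavenger receptor of macrophages, went from 6.66 in MA to 11.64 in DED (difference 4.99, SE 0.25, adjusted p = 1.6e-11), whereas PTPRC (the pan-leukocyte marker CD45), LYZ and AIF1 were at 5.76, 4.36 and 4.55 in DED, inside the background range. The part of other cell types in the complement results was not tested. In these bulk samples, fewer cells of a type and less RNA per cell cannot be told apart.

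Across differentiation the complement genes moved in both directions. C7, CFD, C3 and C1R were called higher in MA than in MSC, and CFI, CD55, CFB and CD59 were called lower, so that 8 of 9 were called (4 up, 4 down). Of all genes 15.4% were called up and 17.6% down in this comparison. The ranges of the 5 MA and 5 MSC arrays did not overlap for any of the 9 genes, against 27.0% of all genes. The median log2 difference of the 9 genes was 0.33, and the median size without sign was 1.61, against 0.22 for all genes. In the conditioned medium 4 of 9 were called, CFD, C7 and CD59 lower and CD55 higher in DED than in MA, where 13.0% of all genes were called down and 12.9% up. These 4 were also the genes whose DED and MA ranges did not overlap, against 18.1% of all genes, and the median size over the 9 genes was 0.34 against 0.19. In DED against MSC 5 were called up (C7, C3, CFD, C1R and C1S) and 3 down (CFI, CD59 and CFB), beside 17.1% and 16.4% of all genes, and 7 had ranges that did not overlap, against 25.1%. The comparisons share arrays with each other (each group enters a pair of them).

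**Figure D1:**
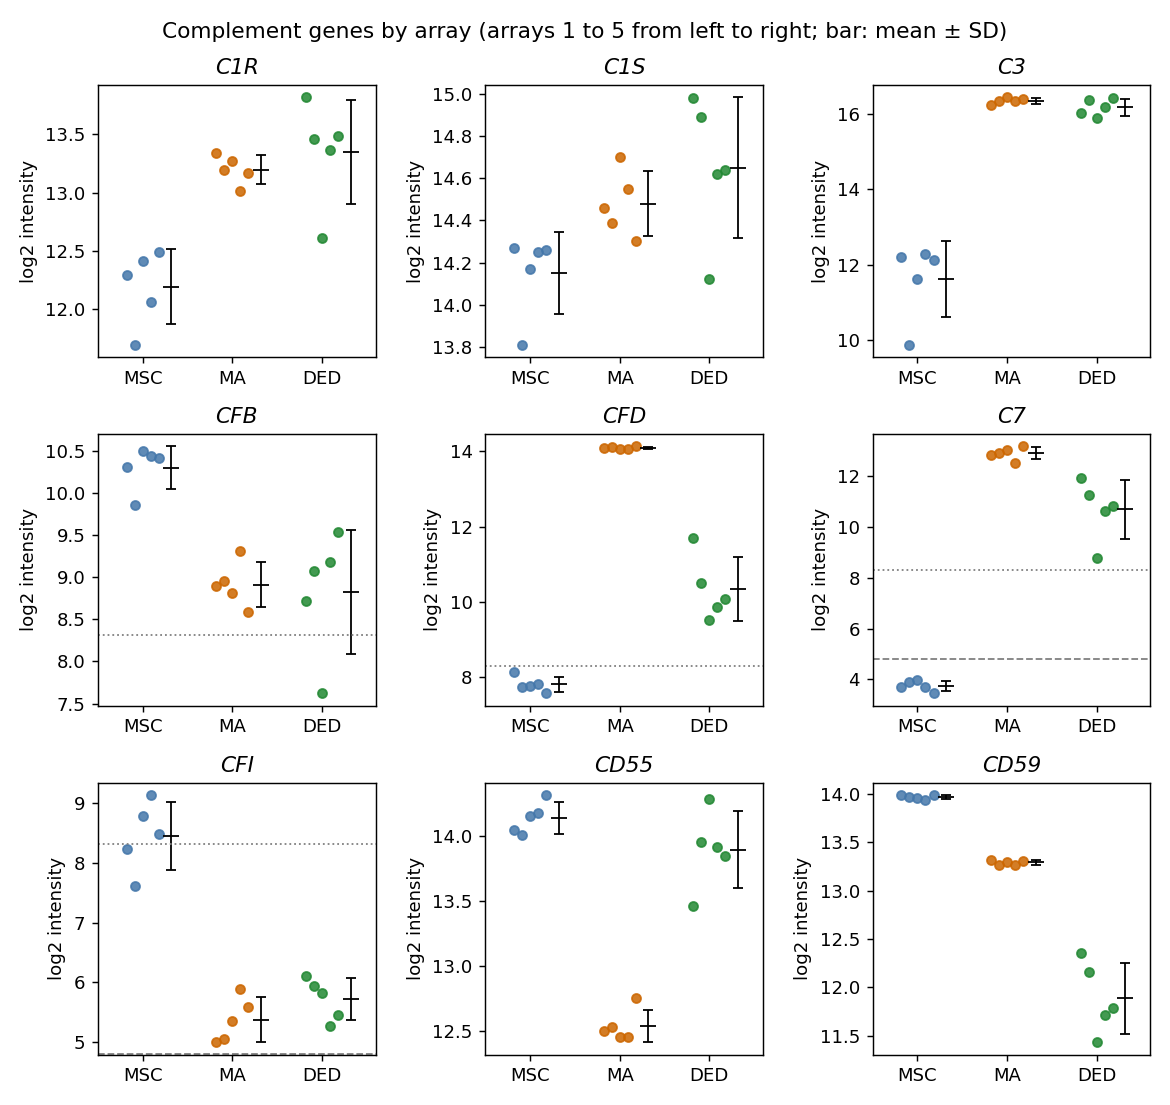
Log2 intensity of each complement gene (vertical axes, each with its own range) on the 5 arrays of MSC, MA and DED, with the mean ± SD beside the points; the dotted line is the 95th percentile of the negative controls (8.31) and the dashed line their median (4.80), drawn where they fall in the panel. C7 and CFD are low in MSC, highest in MA and lower again in DED, C3 stays at 15.88 to 16.44 in MA and DED, CD55 is lowest in MA, and CD59 steps down from MSC to MA to DED.

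**Figure D2:**
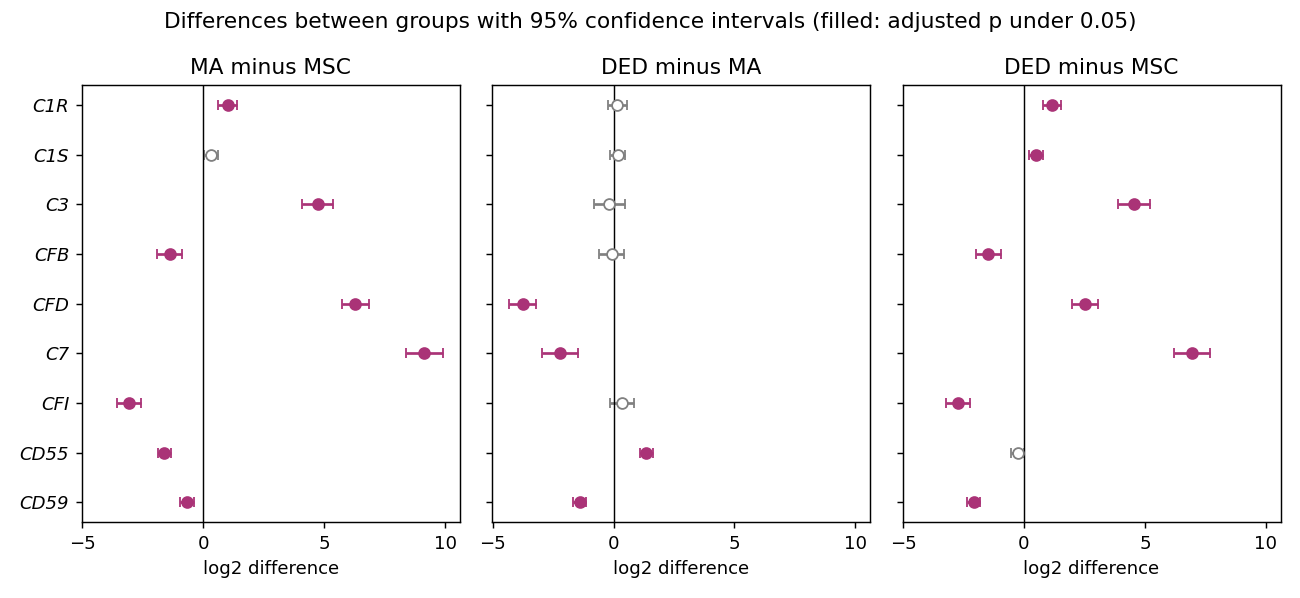
Log2 differences (horizontal axis) of the 9 complement genes in MA minus MSC, DED minus MA and DED minus MSC, with 95% confidence intervals of the limma fit; filled points have an adjusted p under 0.05. In DED minus MA only CFD, C7, CD55 and CD59 are filled.

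The classical pathway proteases C1R and C1S, which work as partners in the C1 complex, lie next to each other on chromosome 12 (GRCh38.p14, C1S at chr12:7060718-7071032 and C1R at chr12:7080219-7092445). No protein-coding gene lies in the 9186 bases between them, and C1RL, which encodes a C1r-like protease, follows 2108 bases after C1R. C1R was 12.29, 11.69, 12.41, 12.06 and 12.49 on MSC arrays 1 to 5, 13.34, 13.19, 13.27, 13.01 and 13.17 on the MA arrays, and 13.82, 13.46, 12.61, 13.37 and 13.49 on the DED arrays. Every MA and DED array was above every MSC array, and the MA range lay within that of DED. C1R rose 2.01-fold in MA over MSC (log2 difference 1.01, SE 0.18, adjusted p = 1.8e-04) and was 2.24-fold higher in DED than in MSC (1.16, SE 0.18, adjusted p = 3.4e-05). DED and MA differed by 0.15 (95% interval -0.23 to 0.54, adjusted p = 0.61).

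C1S was called in DED but not in MA against MSC. It was 14.27, 13.81, 14.17, 14.25 and 14.26 in MSC, 14.46, 14.39, 14.70, 14.55 and 14.30 in MA, and 14.98, 14.89, 14.12, 14.62 and 14.64 in DED. The lowest MA array (14.30) was just above the highest MSC array (14.27), and DED array 3 lay inside the MSC range. The difference of MA from MSC was 0.33 (SE 0.15, adjusted p = 0.097), and it was called when only these groups entered the fit (adjusted p = 0.043), without DED array 3 (0.040) or without DED arrays 1 and 3 (0.035). In each of these fits the difference stayed at 0.33 and the SE was 0.12. The calls came with a narrower spread and add no support. C1S was 0.50 higher in DED than in MSC (SE 0.15, adjusted p = 0.011), and DED against MA gave 0.17 (95% interval -0.14 to 0.48, adjusted p = 0.46). The neighbouring C1RL was called in each comparison, 1.57 higher in MA than in MSC (SE 0.13, adjusted p = 4.0e-09) and a further 1.07 higher in DED than in MA (SE 0.13, adjusted p = 1.8e-06). Whether the changes of these 3 adjacent genes differ from each other was not tested.

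C3, the protein on which all complement pathways converge and the precursor of the anaphylatoxin C3a, was far higher in MA and DED than in MSC. It lies at chr19:6677704-6720650. In MSC it was 12.21, 9.89, 11.62, 12.28 and 12.12, in MA 16.23, 16.34, 16.44, 16.35 and 16.39, and in DED 16.02, 16.37, 15.88, 16.18 and 16.43. MSC array 2 stood below the other MSC arrays, and no MA or DED array came near the MSC range. The rise in MA was 4.73 (SE 0.31, adjusted p = 1.8e-10), or 26.5-fold, and DED remained 4.55 above MSC (SE 0.31, adjusted p = 2.6e-10). DED and MA overlapped and differed by -0.17 (95% interval -0.82 to 0.47, adjusted p = 0.75). Leaving out any 1 array gave 4.29 to 4.89 for MA against MSC.

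The alternative pathway proteases went opposite ways during differentiation. CFD, factor D or adipsin (chr19:859664-863641), was 8.14, 7.74, 7.77, 7.83 and 7.57 in MSC, all within the background range. In MA it was 14.08, 14.12, 14.07, 14.06 and 14.14, and in DED 11.71, 10.51, 9.52, 9.88 and 10.08. The MA arrays agreed to within 0.08, whereas DED arrays spread over 2.19, and the 3 groups did not overlap. CFD was 6.28 higher in MA than in MSC (SE 0.26, adjusted p = 2.0e-13), the 25th largest rise of 17687 genes. In DED it fell 13.5-fold from MA (-3.75, SE 0.26, adjusted p = 1.4e-09), the 12th largest fall, and stayed 2.53 above MSC (SE 0.26, adjusted p = 1.6e-07). Adipocyte markers moved with it: their list mean was 11.81 to 12.01 in MA, 10.97 in DED array 1 and 9.63 to 9.95 in DED arrays 2 to 5. Their part in the fall of CFD was not tested.

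CFB, factor B (chr6:31946095-31952084), was 10.30, 9.86, 10.49, 10.43 and 10.41 in MSC, 8.89, 8.95, 8.81, 9.31 and 8.58 in MA, and 8.72, 9.07, 7.62, 9.18 and 9.53 in DED. All MSC arrays were above all others. CFB fell 2.62-fold in MA (-1.39, SE 0.25, adjusted p = 1.7e-04) and was lower in DED than in MSC by a similar amount (-1.47, SE 0.25, adjusted p = 8.4e-05). DED against MA was -0.08 (95% interval -0.61 to 0.44, adjusted p = 0.86), a value with no stable sign: without DED array 3, at 7.62, it was 0.22 (adjusted p = 0.42), without MA array 4 it was 0.02 (adjusted p = 0.98), and with array weights 0.13 (adjusted p = 0.72). C2, the classical pathway counterpart of factor B, ends 422 bases before CFB begins and stayed in the background range, at 6.19 in MSC, 6.27 in MA and 6.35 in DED, with 0 calls by limma in the 3 comparisons (adjusted p = 0.34 to 0.70).

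The 250 bases before the annotated start of CFB and of CFD (RefSeq, GRCh38.p14) are shown because these partners moved apart in MA. Each window was searched on both strands for TTCNNNGAA (STAT factors), TTGCNNCAA (C/EBP factors), GGANNTTCC (core of NF-kappaB sites) and GAAANNGAA (IRF factors), and capitals mark matches. The CFB window (chr6:31945845-31946094, + strand) held an IRF match on the reverse strand, 139 bases before the start, and NF-kappaB and STAT matches that overlap each other, beginning 97 and 92 bases before it. The CFD window (chr19:859414-859663, + strand) held none of the 4.
CFB: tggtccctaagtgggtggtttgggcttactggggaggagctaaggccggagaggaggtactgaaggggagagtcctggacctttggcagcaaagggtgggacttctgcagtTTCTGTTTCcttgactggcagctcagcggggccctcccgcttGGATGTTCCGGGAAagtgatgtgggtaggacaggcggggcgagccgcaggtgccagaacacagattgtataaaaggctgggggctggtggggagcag
CFD: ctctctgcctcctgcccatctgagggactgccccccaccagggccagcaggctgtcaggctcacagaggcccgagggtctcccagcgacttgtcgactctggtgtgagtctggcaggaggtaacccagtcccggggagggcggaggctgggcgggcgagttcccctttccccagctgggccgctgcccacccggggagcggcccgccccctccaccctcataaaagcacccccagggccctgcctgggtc
A match is a string of letters and not a measured binding site. Such matches were found in 6.57% (STAT), 1.62% (C/EBP), 3.84% (NF-kappaB) and 6.88% (IRF) of the 35116 windows in the table. Those windows were not limited to the outermost annotated start of a gene, as the windows shown here were. Of the 9 genes 7 had a window here, and 3 of these windows held a STAT match (CFB, C7 and CD59), 2 an NF-kappaB match (CFB and CD59), 1 an IRF match (CFB) and 0 a C/EBP match. The window of CFD was 70.8% G or C where the median of all windows was 58.0%.

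C7, which joins C5b and C6 and anchors the forming attack complex in the membrane, showed the largest difference among the 9 genes. It lies at chr5:40909497-40984643. On the MSC arrays it was 3.69, 3.90, 3.98, 3.69 and 3.45, under the median of the negative controls. In MA it was 12.83, 12.91, 13.03, 12.52 and 13.17, and in DED 11.92, 11.25, 8.79, 10.62 and 10.83. The 3 groups did not overlap, and DED array 3 was the lowest of its group, while still above every MSC array. The log2 difference of MA from MSC was 9.15 (SE 0.36, adjusted p = 7.8e-14), the 4th largest rise of all genes, and its size depends on background. In DED C7 fell 4.63-fold from MA (-2.21, SE 0.36, adjusted p = 8.6e-05), and it was 6.94 above MSC (SE 0.36, adjusted p = 3.7e-12). Without DED arrays 1 and 3 the difference from MA was -1.99 (SE 0.17, adjusted p = 7.0e-08) for C7 and -3.94 (SE 0.14, adjusted p = 3.0e-12) for CFD. For both genes these were the highest and the lowest DED array. Leaving them out narrows the spread, so the smaller SE and adjusted p add no support.

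The C7 window (chr5:40909247-40909496, + strand) is shown as that of the gene with the widest change between groups. It held 1 STAT match, beginning 200 bases before the start, and 40.8% G or C.
C7: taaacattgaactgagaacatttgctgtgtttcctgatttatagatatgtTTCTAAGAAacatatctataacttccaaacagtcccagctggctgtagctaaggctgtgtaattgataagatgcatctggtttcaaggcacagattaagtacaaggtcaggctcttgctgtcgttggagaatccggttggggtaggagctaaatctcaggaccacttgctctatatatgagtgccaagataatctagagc

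Of the 6 other terminal components 2 were called in MA against MSC, both higher, and 0 by limma in DED against MA. The shares of all genes were 15.4% up and 17.6% down in MA against MSC, and 12.9% and 13.0% in DED against MA. C6, which binds C5b before C7 does and lies on the same chromosome 157472 bases further, with 1 protein-coding gene between, was also called higher in MA than in MSC (2.70, SE 0.25, adjusted p = 3.0e-08). Its levels were 5.25 to 6.09 in MSC, 7.74 to 8.54 in MA and 8.25 to 9.98 in DED. The C6 means of 5.58 in MSC and 8.27 in MA lie under 8.31, so the size of this rise depends on background. Against MA, C6 in DED differed by 0.60 (SE 0.25, adjusted p = 0.086; 0.76 and adjusted p = 0.030 without DED array 3), so the sign of this estimate was opposite to that of C7. C5 was 0.62 higher in MA than in MSC (SE 0.14, adjusted p = 0.0015), with means in the background range (7.31 in MSC and 7.93 in MA). The chains of C8 (C8A, C8B and C8G) and C9, which complete the pore, lay at 3.99 to 4.98 in all groups, near the negative control median, and limma called 0 of these 4 in the 3 comparisons.

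CFI, the plasma protease that inactivates C3b with the help of cofactors, was lower in both MA and DED than in MSC. It lies at chr4:109730982-109801999. Its MSC values were 8.24, 7.61, 8.78, 9.14 and 8.49, its MA values 4.99, 5.05, 5.35, 5.88 and 5.59, and its DED values 6.10, 5.94, 5.82, 5.27 and 5.45. All MSC arrays were above all others, although 2 of them were themselves under 8.31, and MA and DED overlapped in the background range. CFI was lower by 3.08 in MA (-3.08, SE 0.24, adjusted p = 2.1e-09) and by 2.74 in DED (-2.74, SE 0.24, adjusted p = 1.0e-08) than in MSC, sizes that depend on background. DED against MA gave 0.34 (95% interval -0.15 to 0.84, adjusted p = 0.34).

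The membrane regulators CD55 and CD59 fell together in MA and parted in DED. CD55, the decay-accelerating factor (chr1:207321678-207360966), was 14.05, 14.01, 14.16, 14.18 and 14.32 in MSC, 12.50, 12.53, 12.45, 12.45 and 12.75 in MA, and 13.46, 13.96, 14.29, 13.92 and 13.85 in DED. The MA arrays were below all others, and DED overlapped MSC. CD55 fell 3.05-fold from MSC to MA (-1.61, SE 0.13, adjusted p = 4.0e-09) and rose 2.57-fold from MA to DED (1.36, SE 0.13, adjusted p = 9.3e-08). DED and MSC differed by -0.25 (95% interval -0.52 to 0.02, adjusted p = 0.16), and this was called without DED array 3, the highest DED array (-0.35, adjusted p = 0.032).

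CD59, or protectin (chr11:33703010-33736479), was 13.99, 13.97, 13.96, 13.94 and 13.99 in MSC, 13.32, 13.27, 13.30, 13.27 and 13.31 in MA, and 12.35, 12.16, 11.43, 11.71 and 11.78 in DED. The 3 groups did not overlap and were ordered MSC, MA, DED from high to low. It fell 1.60-fold in MA (-0.68, SE 0.14, adjusted p = 4.7e-04), a further 2.65-fold in DED (-1.41, SE 0.14, adjusted p = 1.0e-07) and 4.24-fold from MSC to DED (-2.08, SE 0.14, adjusted p = 1.2e-10). CD46, the membrane cofactor protein that helps factor I cleave C3b, was 0.47 higher in MA than in MSC (SE 0.10, adjusted p = 0.0011) and 0.08 from MA in DED (SE 0.10, adjusted p = 0.64).

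The windows of CD55 (chr1:207321428-207321677, + strand) and CD59 (chr11:33736480-33736729, - strand) are shown as those of regulators called in opposite directions in DED. That of CD55 held 0 of the 4 strings, and that of CD59 held a STAT match beginning 128 bases and an NF-kappaB match beginning 74 bases before the start. Both were rich in G and C (64.0% and 62.0%) and each held 12 CG pairs, against 2 in the C7 window.
CD55: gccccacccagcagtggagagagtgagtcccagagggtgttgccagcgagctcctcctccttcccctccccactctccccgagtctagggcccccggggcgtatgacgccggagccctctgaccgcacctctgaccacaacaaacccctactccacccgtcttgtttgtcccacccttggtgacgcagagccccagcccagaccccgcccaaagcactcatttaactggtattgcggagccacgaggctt
CD59: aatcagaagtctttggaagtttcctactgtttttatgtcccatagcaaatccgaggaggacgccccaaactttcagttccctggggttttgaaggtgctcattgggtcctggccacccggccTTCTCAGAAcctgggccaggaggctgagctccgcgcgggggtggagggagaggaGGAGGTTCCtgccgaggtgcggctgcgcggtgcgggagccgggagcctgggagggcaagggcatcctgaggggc

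Arrays within a group differed in a way that several complement genes shared. In DED, array 3 was the lowest for 7 of the 9 genes (C1R, C1S, C3, CFB, CFD, C7 and CD59) and the highest for CD55, and array 1 was the highest for 6 (C1R, C1S, CFD, CFI, C7 and CD59) and the lowest for CD55. Over all genes array 3 was the lowest DED array in 26.0% and array 1 the highest in 25.8%. The correlation of arrays over all genes was lowest between DED arrays, at 0.982, where MSC and MA arrays reached at least 0.992. In MSC, array 2 was the lowest for 6 genes (C1R, C1S, C3, CFB, CFI and CD55), while over all genes it was the lowest in 20.3%. MA arrays were close together, with ranges from 0.05 (CD59) to 0.89 (CFI).

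**Figure D3:**
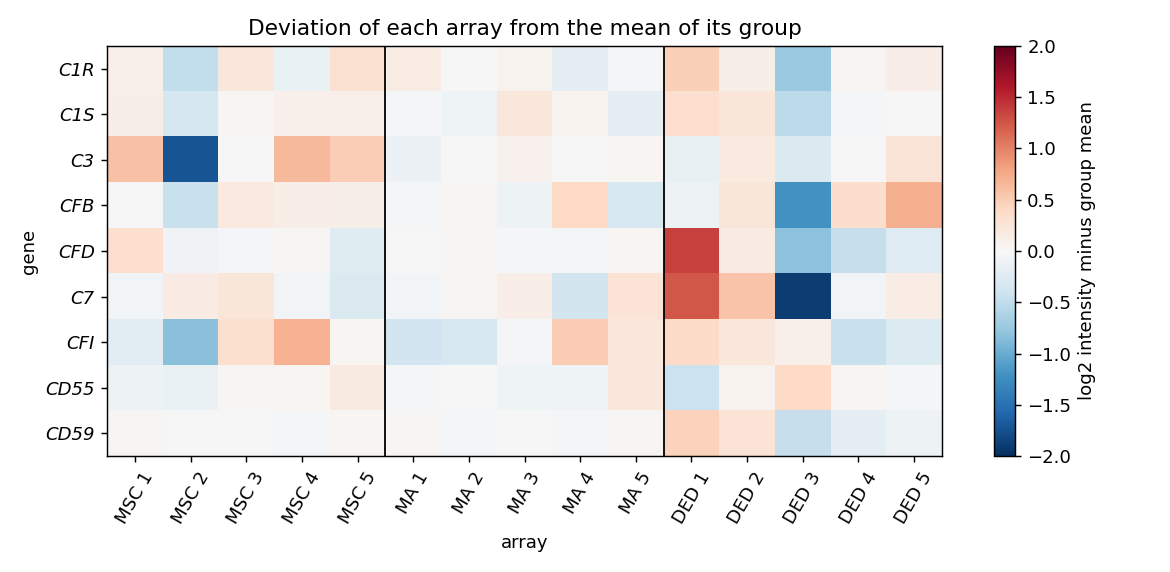
Log2 intensity minus the mean of the group (colour) for the 9 complement genes (rows) on the 15 arrays (columns), with vertical lines between MSC, MA and DED. MSC array 2 is low for C3, C1R, C1S, CFB and CFI, DED array 3 is low for C7, CFB, CFD, C1R, C1S and CD59 and high for CD55, and DED array 1 is high for CFD and C7.

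A list of 51 further complement genes, of which 45 were measured, placed the 9 genes in the rest of the system. Most of these 45 lay low: 36 had all 3 group means under 8.31. Of the 45, 9 were called up and 2 down in MA against MSC, 4 up and 6 down in DED against MA, and 7 up and 1 down in DED against MSC, with median log2 differences of 0.05, 0.05 and 0.09. The median of all genes was 0.00, 0.02 and 0.03. Of all genes 15.4% were called up and 17.6% down in MA against MSC, 12.9% and 13.0% in DED against MA, and 17.1% and 16.4% in DED against MSC, and the counts for the 45 genes do not exceed these shares when both directions are added.

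Among recognition molecules the C1q chains, which start the classical pathway and in fat tissue come mainly from macrophages, stayed in the background range (C1QA 5.33 to 5.34, C1QB 4.91 to 5.14 and C1QC 6.81 to 6.92 as group means), and limma called none of the 3 in any comparison (adjusted p from 0.15). PTX3, a pentraxin that binds C1q, rose by 3.66 in MA over MSC (SE 0.24, adjusted p = 1.8e-10) and by a further 1.31 in DED over MA (SE 0.24, adjusted p = 3.0e-04). COLEC12, a scavenger receptor of the collectin family, averaged 11.83 (MSC), 9.25 (MA) and 7.20 (DED) (adjusted p = 1.3e-07 for MA against MSC and 5.2e-06 for DED against MA). FCN1, a ficolin of the lectin pathway, was -0.53 from MA in DED (SE 0.14, adjusted p = 0.0076), within the background range in all groups. Of 12 genes for recognition and the lectin pathway 1 was called up and 1 down in MA against MSC, and 1 up and 2 down in DED against MA. Over all genes these shares were 15.4% and 17.6%, and 12.9% and 13.0%.

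SERPING1, the C1 inhibitor that blocks C1r, C1s and the MASP proteases, followed the pattern of CFD and C7. It was 10.15 to 11.05 in MSC, 14.21 to 14.48 in MA and 11.75 to 13.98 in DED, a rise of 3.55 (SE 0.29, adjusted p = 5.5e-09) and then a difference of -1.04 (SE 0.29, adjusted p = 0.011), which was -0.65 and still called without DED array 3. MASP1, a lectin pathway protease, rose by 1.95 in MA (SE 0.27, adjusted p = 7.6e-06) and was 1.58 lower in DED than in MA (-1.58, SE 0.27, adjusted p = 1.4e-04). Its DED level of 10.41 differed from the MSC level of 10.05 by 0.36 (adjusted p = 0.35; 0.71 and 0.0012 without DED array 3). C4A, a convertase subunit, had the opposite course, -0.89 in MA against MSC (SE 0.14, adjusted p = 4.9e-05) and 0.72 in DED against MA (SE 0.14, adjusted p = 7.0e-04). Its value is uncertain, since probes for C4A can also bind transcripts of the near-identical C4B.

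Of 9 complement receptor genes limma called 0 in MA against MSC and 0 in DED against MSC, and in DED against MA it called C5AR1, a receptor of the anaphylatoxin C5a, 0.51 higher (SE 0.18, adjusted p = 0.042). Shares of all genes called up and down were 15.4% and 17.6% in MA against MSC, and 17.1% and 16.4% in DED against MSC. In DED against MA they were 12.9% and 13.0%. The C5AR1 means were 6.30 in MA and 6.81 in DED, in the background range, and the call was lost without any 1 of 6 arrays (adjusted p = 0.056 to 0.12). C3AR1, the C3a receptor, was at 4.42, 4.46 and 4.35 in MSC, MA and DED, under the negative control median.

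**Figure D4:**
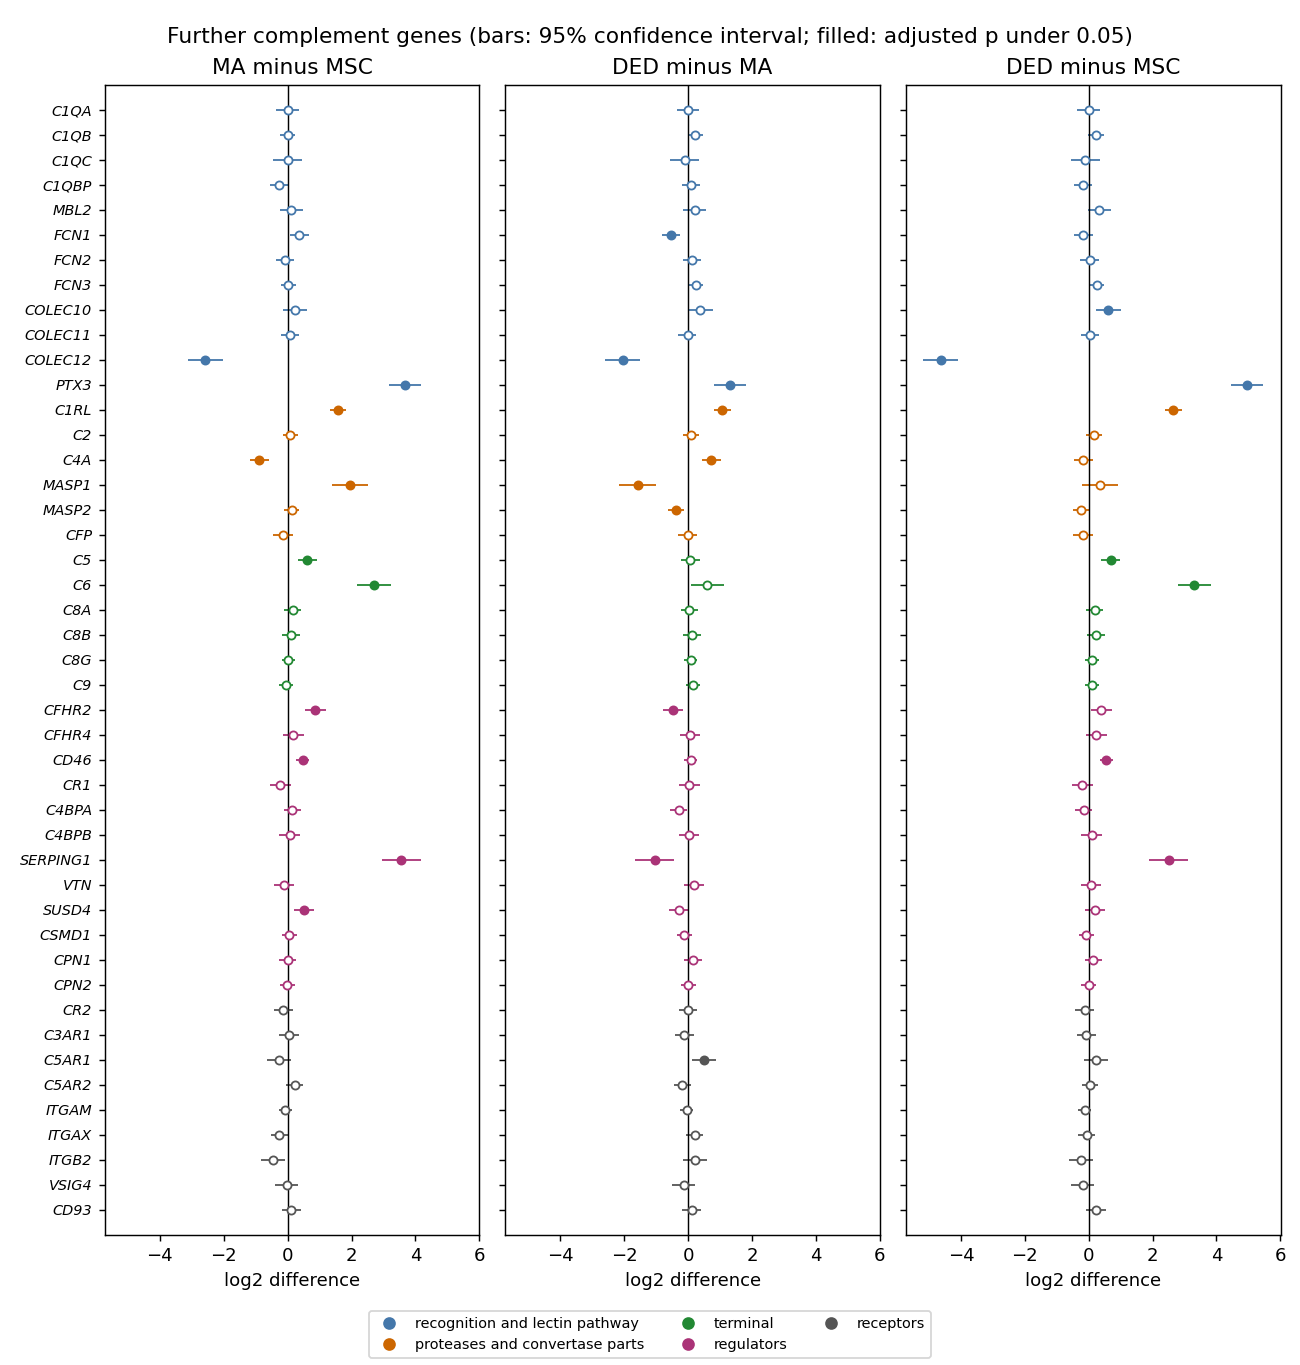
Log2 differences (horizontal axes) of 45 further complement genes (rows, coloured by role) in MA minus MSC, DED minus MA and DED minus MSC, with 95% confidence intervals; filled points have an adjusted p under 0.05. Most genes sit near 0, and PTX3, SERPING1, C6, MASP1, C1RL and COLEC12 stand away from it in MA minus MSC.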

How the data were processed

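The authors deposited 1 table of log2 intensities for 15 arrays. The submitters' processing notes name RMA and, as software, Transcriptome Analysis Console, with neither a version nor a build. RMA equalises array distributions, so a shift shared by all genes cannot be read. Values have 2 decimals (2.61 to 18.35). Groups came from sample titles.

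Of 24351 probe sets 17709 carried 1 symbol, 0 several and 3739 transcript probe sets none, and 2903 were controls. For 20 symbols with several probe sets the one with the highest mean was kept, which left 17687 genes. The comparisons used R 4.3.3 and limma 3.58.1 (lmFit and then eBayes, all 15 arrays, no covariates, Benjamini-Hochberg over all genes), after the test was tested on simulated data. No filter on dim genes was applied. Named beside the 9 genes were up to 4 called rises and 4 called falls of the further list per comparison, and others, chosen after their values were seen, to complete a role. A planned comparison of protein sequences was not run.

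The genes, lists and tests were chosen with earlier results of these data known. Promoter windows were matched by symbol for 7 of 9 genes, at the outermost annotated start. Matplotlib 3.10.9 under Python 3.11.15 drew the figures. Alternatives covered normalization, filter, variance model, array weights, groups fitted, a replicate block and arrays left out. The number of arrays limits the precision.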

Additional observations from a re-analysis of the deposited data

Results flagged for a closer look

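Of 54 sets of 5 arrays (18 genes in 3 groups), 7 held an array whose gap to its nearest neighbour was over 0.71 of the range, where chance flags about 1 set in 20. In MSC, array 2 was far below the others for C3 (9.89, next 11.62), C1S (13.81, next 14.17) and SERPING1 (10.15, next 10.85). In DED, array 3 was far below the others for SERPING1 (11.75, next 13.36). CD55 was high in MA array 5 (12.75, next 12.53), C6 low in MA array 1 (7.74, next 8.31) and FCN1 high in MSC array 3 (7.99, next 7.59).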

How the results depend on the processing

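Under 24 alternatives (quantile normalization, a common median, dim genes left out, all probe sets singly, intensity trend with robust fit, array weights, only the groups compared, replicate block, each array left out, and DED arrays 1 and 3 left out) 8 to 9 of the 9 genes were called in MA against MSC, 4 in DED against MA and 8 to 9 in DED against MSC. All genes called numbered 5394 to 6258, 4130 to 4933 and 5450 to 6376. With the replicate number as a block the 3 counts of the 9 genes were 8, 4 and 8, and no call of the 9 genes changed. Same-numbered arrays did not deviate together (correlations of deviations -0.11 to 0.09, 0 of 5 over 0.1 in each pair of groups), so the numbers were not taken as pairs. Of 648 values of the 9 genes 640 kept sign and side of the threshold, 4 passed it only under the alternative (C1S in 3 and CD55 in 1, given above) and 4 changed sign, all of them CFB in DED against MA, never called: 0.13 with array weights, 0.35 without DED arrays 1 and 3, and -0.26 to 0.22 with 1 array left out. In MA against MSC, FCN1 (0.36, adjusted p = 0.054) was called under 10 alternatives (adjusted p = 0.016 to 0.049). C5AR1 in DED against MA also lost its call when only these groups were fitted (0.054) and without DED arrays 1 and 3 (0.076), and without the latter MASP1 in DED against MSC was called (0.56, adjusted p = 0.0059). The cause was not tested. Neither scaling alternative moved the median of all genes by over 0.1. Background limits C7 and CFD in MSC and CFI in MA and DED.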

Other observations

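A list of 27 textbook regulators of complement gene transcription, of which 26 were measured, held 11 genes called higher and 5 lower in MA against MSC, 10 and 4 in DED against MA, and 13 and 2 in DED against MSC. Over all genes the shares called higher and lower were 15.4% and 17.6%, 12.9% and 13.0%, and 17.1% and 16.4%. The examples below were chosen after their values were seen. IL6, an inducer of acute phase genes, was 4.74 to 5.61 in MSC, 4.72 to 5.23 in MA and 7.46 to 7.93 in DED. Every DED array was above every MA and MSC array, and IL6 was 2.76 higher in DED than in MA (SE 0.15, limma adjusted p = 4.6e-11). All these levels lie inside the background range, so the size of this difference depends on background. The interleukin-1 receptor IL1R1 was 2.67 higher in MA than in MSC (SE 0.22, limma adjusted p = 6.6e-09) and 0.88 higher in DED than in MA (SE 0.22, adjusted p = 0.0055). IFNGR1, a chain of the interferon-gamma receptor, rose by 1.40 and then by 1.10 (SE 0.13 each, adjusted p = 3.3e-08 and 1.7e-06), and STAT3, a factor downstream of interleukin-6, by 0.69 and 1.08 (SE 0.13 each, adjusted p = 2.0e-04 and 1.6e-06). In DED against MA, IFNGR2, the other interferon-gamma receptor chain, went the other way from IFNGR1 and differed by -0.45 (adjusted p = 0.021). Of the interleukin-6 receptor chains, IL6R differed by -0.74 (adjusted p = 5.6e-04), within the background range. Its partner IL6ST differed by 0.27 (SE 0.11, adjusted p = 0.063), with every DED array above every MA array. In DED against MA limma did not call 12 of the 26. Among them were SOCS3 (0, adjusted p = 0.99), IL1B (-0.01, 0.97), CEBPB (-0.3, 0.13) and GBP2 (-0.03, 0.92). Means of SOCS3, IL1B and CEBPB lay in the background range. PPARG, the adipogenic nuclear receptor and also among the adipocyte markers, was 7.06, 10.61 and 8.89 in MSC, MA and DED, the order of levels seen for CFD and C7. RELB, an NF-kappaB subunit, was 10.05, 8.69 and 10.27, lowest in MA like CD55 and C4A. These are values side by side over groups that share arrays, and no relation between a regulator and a complement gene was tested.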
